A study of Mus musculus with 6 samples.

Results

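Coenzyme A is built in the cell from the vitamin pantothenate. Pantothenate kinase (Pank) catalyses the first step, which sets the rate, phosphopantothenoylcysteine synthetase (Ppcs) and decarboxylase (Ppcdc) make phosphopantetheine, and the bifunctional coenzyme A synthase (Coasy) finishes the molecule. The carrier holds acetyl and fatty acyl groups as thioesters, so heart muscle depends on it to burn fatty acids and pyruvate. In humans, inherited defects of PPCS cause dilated cardiomyopathy, and defects of PANK2 or COASY cause neurodegeneration with brain iron accumulation.

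The 7 mouse genes of this pathway, Pank1, Pank2, Pank3, Pank4, Ppcs, Ppcdc and Coasy, were represented by 16 probe sets that the platform annotation gives to exactly 1 of these symbols, out of 34945 probe sets with 1 symbol for 18193 genes. The set was chosen by the low Pank3 signal in these knockout arrays, and the other genes were added as steps of the same pathway. All genotype differences of the 7 genes are therefore given as a description, with no test. The arrays hold RNA from whole hearts of E10.5 mouse embryos, with 3 knockout (KO) and 3 wild-type (WT) arrays, all on the C57BL/6N background. The KO is a global loss of RhoE, the protein of the gene Rnd3, made with a gene trap. RhoE is a GTP-binding protein of the Rnd family. By the design text KO embryos die at or soon after this stage, and the arrays ask how the heart transcriptome of KO and WT embryos differs. Littermate pairs are mentioned there, but no label ties a replicate number to a litter or says whether hearts were pooled, so the errors below measure the spread between arrays. Only 3 arrays per group limit the precision.

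Rnd3, the targeted gene, read 5.89, 12.3 and 121 on KO arrays 1, 2 and 3, against 909, 954 and 862 on WT arrays 1, 2 and 3. Values are MAS5 signals, a linear fluorescence scale on which every array has the same trimmed mean, and a low-signal limit was set at the 40th percentile of each array (44.5 to 52.8). Summed over 14 cardiomyocyte markers, the signal ran from 325601 to 364876 in KO and from 348914 to 377755 in WT. None of the 14 passed the limma test described below, but 10 had negative differences, against 56.2% of all tested genes. An unadjusted p under 0.05 was found for 3, against 20.3% of all tested genes. Myh6 (-0.25), Myl2 (-0.14), Ryr2 (-0.26) and Nkx2-5 (-0.29) were lower on every KO array than on any WT array. They are a larger share of the 14 markers than the 11.0% found over all 34945 probe sets with 1 symbol. Summed over the 9 tested endoderm markers (liver and yolk sac), the signal ran from 688 to 2277 in KO, against 1907 to 7878 in WT, and without Afp from 651 to 1203 in KO, against 791 to 1823 in WT. All 9 had negative differences, with a median of -0.74, and 4 had an unadjusted p under 0.05. Only Alb passed the limma test, barely (adjusted p = 0.049997). Alb was above the low-signal limit on 3 WT arrays but on only 1 KO array (KO signals 51.9, 36.8 and 20.7). The WT arrays alone let it into the fit, so nothing is read from its p. Over 7 tested macrophage markers the summed signal ran from 989 to 2222 in KO and from 894 to 965 in WT. That separation rested on Lyz2, without which the sums overlapped (537 to 1394 in KO, 661 to 762 in WT). Over 7 tested neuronal markers it ran from 1795 to 2077 in KO and from 2271 to 2622 in WT, and without Isl1, which also marks the second heart field, the sums overlapped (1006 to 1196 in KO, 1188 to 1453 in WT). Afp, Lyz2 and Isl1 were singled out after their values were seen. Erythroid sums (95680 to 110218 in KO, 92692 to 110509 in WT) and endothelial sums (7683 to 8365 in KO, 7441 to 8094 in WT) overlapped. Xist, the transcript of the inactive X chromosome of females, read 539, 8884 and 28.4 on KO arrays 1, 2 and 3, against 10251, 12474 and 11878 on the WT arrays, and was above the limit on 5 arrays. Eif2s3y, a Y-linked gene, read 2214, 793 and 2339 on the KO arrays, against 551, 312 and 385 on the WT arrays. Eif2s3y, Kdm5d and Uty, all Y-linked, were above the limit on all 6 arrays and higher on every KO array, KO array 2 included, than on any WT array. Genotype and the sex of the tissue cannot be told apart fully. The part of these cell types and of sex in the results below was not tested. A fit with Xist as a covariate is given below, but it cannot separate sex from genotype. The Y-linked genes split the genotypes fully, and KO array 2 had high Xist as well.

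Pank1, Pank2 and Pank3 each carry a microRNA gene on their own strand, a feature that the choice of genes did not use. In GRCm38.p6, Mir107 (chr19:34820687-34820773, minus strand) lies within Pank1 (chr19:34806935-34883423), Mir103-2 (chr2:131288052-131288137, plus strand) within Pank2 (chr2:131262008-131299188), and Mir103-1 (chr11:35782396-35782481, plus strand) within Pank3 (chr11:35769495-35791285). No microRNA of the RefSeq table lies within Pank4 (chr4:154964123-154980940), Ppcs (chr4:119418527-119422440), Ppcdc (chr9:57385095-57440157) or Coasy (chr11:101082565-101086619). The mature strands are shown because the 3 hosts yield nearly the same microRNA. Sequences are from RefSeq (GRCm38.p6), 5′ to 3′, with the seed, bases 2 to 8, in capitals.
mmu-miR-103-3p, from Pank3 and from Pank2: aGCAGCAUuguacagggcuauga
mmu-miR-107-3p, from Pank1: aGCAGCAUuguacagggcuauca
mmu-miR-103-1-5p, from Pank3: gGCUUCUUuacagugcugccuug
mmu-miR-103-2-5p, from Pank2: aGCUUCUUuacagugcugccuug
mmu-miR-107-5p, from Pank1: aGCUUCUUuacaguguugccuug

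Counted from 1 at the 5′ end, miR-103-3p and miR-107-3p differ at 1 of 23 bases (G22C), outside the seed. The 5p strand from Pank3 differs from that of Pank2 by G1A and from that of Pank1 by G1A and C16U, and all 3 share the seed GCUUCUU. Of 1072 microRNA genes in the RefSeq table, the 3 in the Pank genes are the only ones with a mature strand whose seed is GCAGCAU. No probe set with 1 symbol is named for Mir103-1, Mir103-2 or Mir107, so the signals below are those of the host transcripts, and the microRNAs themselves were not measured.

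Pank3, a cytosolic kinase inhibited by acetyl-CoA, had the largest genotype difference of the 7 genes. This contrast chose it, so the rank is no evidence. Its bright probe set 1433613_at read 1335, 1220 and 1043 on KO arrays 1, 2 and 3, against 2171, 2477 and 2020 on WT arrays 1, 2 and 3. All KO arrays lay below all WT arrays, with a gap between the highest KO and the lowest WT array larger than the spread within either group. The mean was 1199 ± 147 in KO and 2223 ± 233 in WT (SD, n = 3 each), so KO hearts had 0.539 times the WT signal, a log2 difference of -0.89 (SE 0.14). KO array 2, which had high Xist together with Y-linked signal above every WT array, was intermediate among the KO arrays. In bulk tissue, fewer cells that express a gene and less RNA per cell cannot be told apart.

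The other Pank3 probe set, 1426259_at, did not show that separation. It read 128, 111 and 144 on the KO arrays, against 174, 115 and 139 on the WT arrays, a log2 difference of -0.15 (SE 0.20). KO array 3, the lowest for the bright probe set, was the highest KO array here. The bright probe set exceeded the dim one by 3.38, 3.46 and 2.85 log2 units on the KO arrays, against 3.64, 4.43 and 3.86 on the WT arrays. The 2 probe sets thus gave unequal genotype differences, and their average was -0.52, smaller by over 1.5 times than the value of the bright one. Which part of the transcript each probe set covers was not analysed here.

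**Figure D1:**
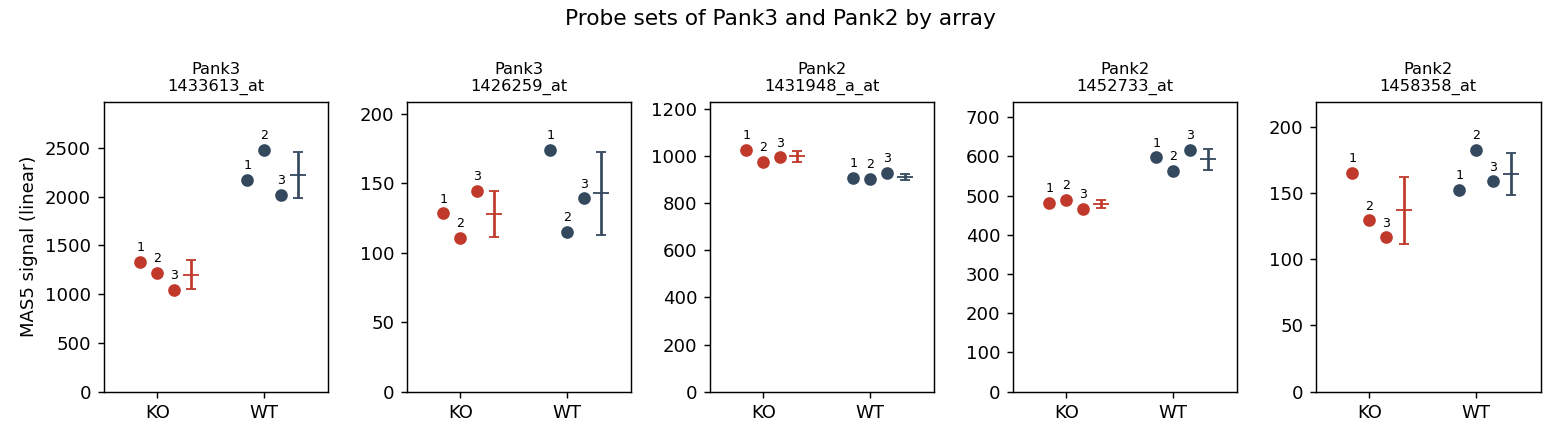
MAS5 signal (linear axis from 0) of the 2 Pank3 and 3 Pank2 probe sets in KO and WT hearts; points are arrays, numbered by replicate, and bars are mean and SD, n = 3. The bright Pank3 probe set separates the groups (1043 to 1335 in KO, 2020 to 2477 in WT), the dim one does not, and the first 2 Pank2 probe sets separate them in opposite directions.

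Pank2, whose human counterpart works in mitochondria and is the gene of pantothenate kinase-associated neurodegeneration, gave probe sets of opposite sign. The brightest, 1431948_a_at, read 1025, 976 and 994 on the KO arrays, against 906, 903 and 928 on the WT arrays. Every KO array lay above every WT array, but by little, with a log2 difference of 0.13 (SE 0.02). Probe set 1452733_at read 481, 488 and 467 on the KO arrays, against 598, 563 and 616 on the WT arrays. Here every KO array lay below every WT array, a log2 difference of -0.31 (SE 0.04). The dimmest, 1458358_at, read 165, 129 and 116 on the KO arrays and 152, 182 and 159 on the WT arrays, and the groups overlapped (-0.28, SE 0.17). Within each array the first exceeded the second by 1.09, 0.9998 and 1.09 log2 units in KO, against 0.60, 0.68 and 0.59 in WT. These 2 probe sets separate the groups in opposite directions, so their ratio had to separate them too and adds no further evidence. The suffix _a_at marks probe sets designed to match several transcripts of a gene. No single direction can be given for Pank2, and the average over its probe sets was -0.15.

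Pank1, the kinase gene with high expression in liver and heart, was nearly level between the genotypes. Probe set 1418715_at read 2061, 2077 and 1998 on the KO arrays, against 1997, 2127 and 2523 on the WT arrays. The 3 KO arrays were closely alike and lay in the lower part of the WT range. The log2 difference was -0.11 (SE 0.10), and it was -0.01 without WT array 3 and -0.18 without WT array 1. Probe sets 1431028_a_at (0.09, SE 0.16) and 1441765_at (0.04, SE 0.12) had the opposite sign, and the groups overlapped in both. The fourth, 1457110_at, was above the low-signal limit on only 2 of 6 arrays and carries little information (41.3 to 51.6 in KO, 36.5 to 84.2 in WT).

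Pank4, a divergent family member that lacks kinase activity in vertebrates and carries a phosphatase domain acting on phosphopantetheine, had 1 probe set. It read 986, 897 and 1060 on the KO arrays, against 1005, 1012 and 995 on the WT arrays. The WT arrays were within 0.02 log2 units of each other, the KO arrays spread over 0.24, and the groups overlapped. The log2 difference was -0.04 (SE 0.07), and its sign turned with arrays centred on their median (0.01) and without KO array 2 (0.03), while it was -0.09 without KO array 3.

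**Figure D2:**
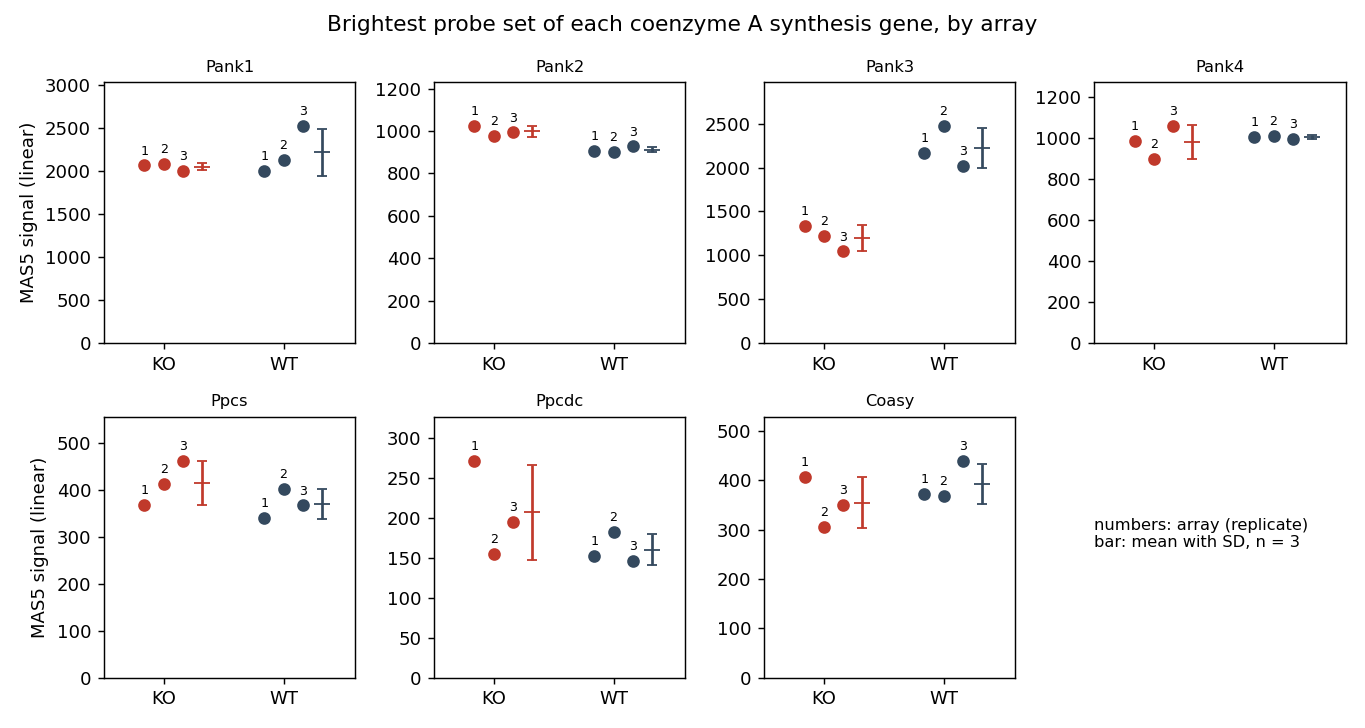
MAS5 signal (linear axis from 0) of the brightest probe set of each coenzyme A synthesis gene in KO and WT hearts; points are arrays, numbered by replicate, and bars are mean and SD, n = 3. Pank3 (1199 in KO, 2223 in WT on average) is separated widely and Pank2 (998 in KO, 912 in WT) narrowly, while the other 5 genes overlap.

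The 3 genes of the later steps showed no separation between the genotypes in any probe set. Ppcs, which joins phosphopantothenate to cysteine, read 368, 413 and 463 on the KO arrays, against 340, 404 and 368 on the WT arrays, and the groups overlapped. The log2 difference was 0.16 (SE 0.12), and it was 0.08 without KO array 3, 0.10 without WT array 1 and 0.24 without KO array 1. Its probe set has the suffix _s_at, which marks probes shared between transcripts. A further probe set, annotated to Ppcs together with the gene model Gm8465 and so outside the 16, read 122, 164 and 168 on the KO arrays, against 118, 125 and 86.9 on the WT arrays, also overlapping.

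Ppcdc, which removes the carboxyl group of the cysteine part, was dim and variable. Probe set 1424335_at read 271, 154 and 195 on the KO arrays, against 152, 182 and 146 on the WT arrays. KO array 1 was the highest and KO array 2 lay within the WT range, and the log2 difference of 0.34 (SE 0.26) became 0.13 without KO array 1 and 0.53 without KO array 2. Probe set 1424336_at had -0.11 (SE 0.32), and 1430813_at, above the limit on 3 arrays, ran from 14.7 to 85.8 in KO and from 10.4 to 55.6 in WT.

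Coasy, whose enzyme adds the adenylyl group and then the last phosphate, read 407, 305 and 350 on the KO arrays, against 372, 367 and 440 on the WT arrays. The groups overlapped, with a log2 difference of -0.15 (SE 0.15). It was -0.05 without KO array 2 and -0.07 without WT array 3, but -0.26 without KO array 1. Its other probe set, 1443829_x_at, of a class that can bind related sequences, read between 179.5 and 181 on all KO arrays, against 156, 212 and 207 on the WT arrays (-0.07, SE 0.14).

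**Figure D3:**
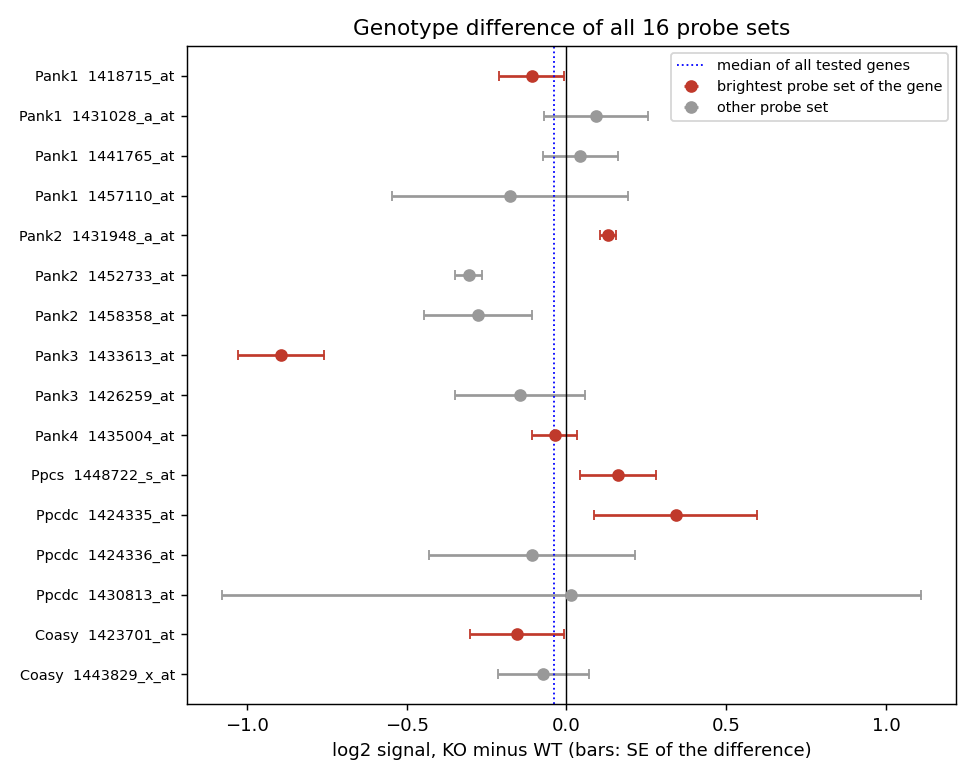
Log2 difference of MAS5 signal, KO minus WT, for all 16 probe sets of the 7 genes; bars are the SE of the difference (n = 3 per group), red marks the brightest probe set of a gene, and the dotted line is the median of all tested genes (-0.04). The bright Pank3 probe set stands at -0.89, and all others lie between -0.31 and 0.34.

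Over all 16 probe sets, 10 had a lower and 6 a higher mean log2 signal in KO. KO arrays lay wholly below WT arrays for 2 probe sets (Pank3 and Pank2), or 12.5%, against 11.0% of all 34945 probe sets with 1 symbol, and wholly above for 1 (Pank2), or 6.25%, against 8.56%. These shares are near that background, which also holds probe sets below the low-signal limit, and nothing is read from them. All 7 genes had a brightest probe set above the limit on all 6 arrays. Their median log2 difference was -0.04, the same to this precision as that of all 12712 tested genes, with 4 negative and 3 positive values. In a limma fit over the 12712 genes with Benjamini-Hochberg adjustment, 162 genes passed an adjusted p of 0.05, 1.27% of those tested, and 62 of them were lower in KO (0.488%). Pank3 was the only 1 of the 7 past that threshold, and nothing is read from this, since the same contrast chose it. By size it was the sixth of the 62 lower genes, and 122nd from the lowest of all 12712. With arrays centred on their median, 81.1% of the genes past the threshold were higher in KO, against 61.7% without centring. The Pank3 difference ran from -0.97 to -0.80 when single arrays were left out. It was -0.77 with log2 Xist as a covariate, which does not separate sex from genotype.

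On chromosome 11 the nearest tested genes on either side of Pank3 were Slit3 and Fbll1. Fbll1, a fibrillarin-like gene that starts 6.10 kb beyond Pank3, read 148, 128 and 107 on the KO arrays, against 164, 152 and 181 on the WT arrays (log2 difference -0.39, limma SE 0.20, adjusted p = 0.304). Rars, the arginyl-tRNA synthetase gene 17.1 kb beyond Pank3, read 3280, 2515 and 2947 in KO, against 3534, 3489 and 3520 in WT (-0.28, limma SE 0.10, adjusted p = 0.163). On the other side, Slit3, a secreted guidance cue whose end lies 61.0 kb away, read 271, 194 and 210 in KO, against 319, 348 and 269 in WT (-0.48, limma SE 0.17, adjusted p = 0.150). Spdl1, a mitotic spindle protein gene 936 kb away, had 0.30 (limma SE 0.10, adjusted p = 0.149). None of the 4 passed the limma test, the 3 nearest had negative differences, and none differed by as much as the bright Pank3 probe set.

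The genes whose signals ran most like the bright Pank3 probe set over the 6 arrays were Zmym5 (Pearson r = 0.995), Zfp871 (0.992) and Arel1, a ubiquitin ligase gene (0.990). The most opposed were Herpud1, an endoplasmic reticulum membrane protein gene (-0.992), Smim20 (-0.990) and Thap12 (-0.990). These correlations carry the genotype difference, and of 12705 genes compared 458, or 3.60%, had r above 0.9. Among the 7 genes, r with the bright Pank3 probe set was 0.898 for Pank2 probe set 1452733_at and 0.806 for 1458358_at. It was -0.892 for Pank2 probe set 1431948_a_at and 0.169 for the dim Pank3 probe set. These values too carry the genotype difference. Within the WT arrays 1452733_at (598, 563 and 616) ran in the reverse order of the bright Pank3 probe set (2171, 2477 and 2020).

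Genes that import the precursor, carry, use or break down coenzyme A were examined as 6 lists with 67 tested genes, none of them a synthesis gene. Of these, Cbr4 rose, 66 did not pass and none fell, or 1.49% past the threshold, against 1.27% of all tested genes. At an unadjusted p under 0.05 there were 23 of 67 (34.3%), against 2580 of 12712 (20.3%). Positive differences were found in 44 of the 67, while 56.2% of all tested genes had negative ones. Of the 67, only Slc27a2 was above the low-signal limit in just 1 of the groups, and without it 22 of 66 (33.3%) had an unadjusted p under 0.05. The median was 0.09, against -0.04 over all tested genes. The lists were chosen with earlier results of these data known, so these shares are a description and no enrichment was tested. No member of these lists other than Cbr4 is called changed here.

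**Figure D4:**
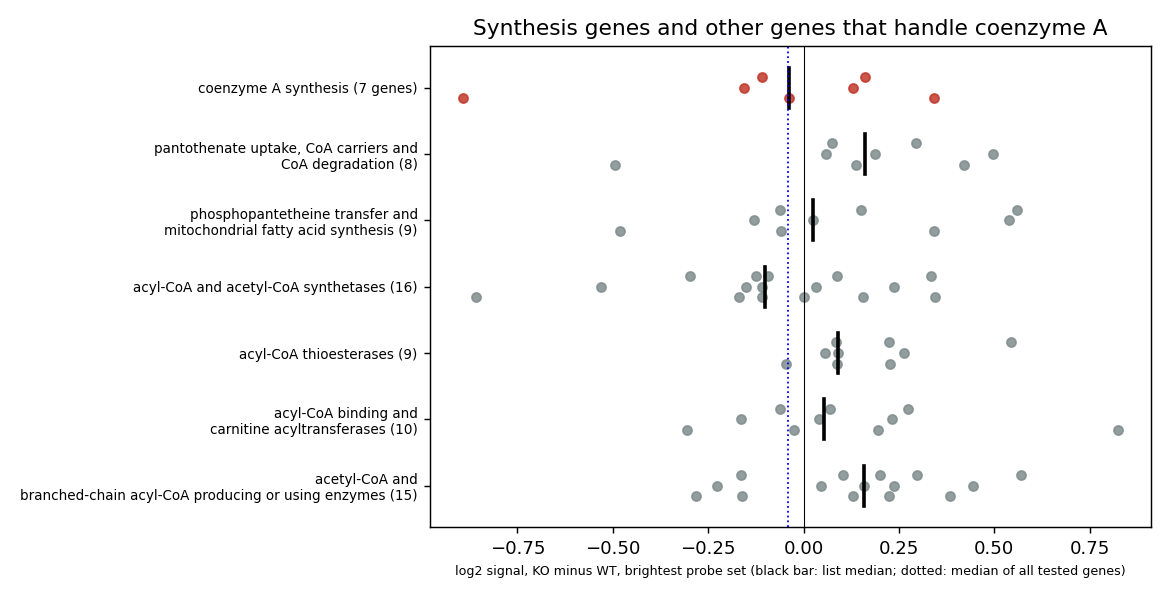
Log2 difference of MAS5 signal, KO minus WT, of the brightest probe set of each tested gene, for the 7 synthesis genes (red) and 6 lists of other genes that handle coenzyme A (grey); black bars are list medians and the dotted line is the median of all tested genes (-0.04). Pank3 lies at -0.89, beyond the other 6 synthesis genes (-0.15 to 0.34), and the list medians lie between -0.10 and 0.16.

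Cbr4, a subunit of the mitochondrial ketoacyl-ACP reductase, belongs to the list of phosphopantetheine transfer and mitochondrial fatty acid synthesis, where 1 of 9 tested genes rose, 4 had an unadjusted p under 0.05, 5 had positive and 4 negative differences, and the median was 0.02. It read 1135, 1296 and 1198 on the KO arrays, against 784, 839 and 873 on the WT arrays. The groups were well apart, with a log2 difference of 0.54 (limma SE 0.10, adjusted p = 0.0389, n = 3 per group). Over 16 alternatives the adjusted p ran from 0.0193 to 0.206 and stayed past the threshold in 6, and the call was lost without KO array 2 or 3 or any WT array. In the same list Ndufab1, the mitochondrial acyl carrier protein that holds a phosphopantetheine arm made from coenzyme A, had 0.34 (adjusted p = 0.0520). Aasdh, an enzyme with a phosphopantetheine-binding domain, had -0.48 (adjusted p = 0.0756) with every KO array below every WT array, as in 11.0% of all probe sets with 1 symbol. Fasn, cytosolic fatty acid synthase, had -0.13 (adjusted p = 0.501). Ndufab1, Aasdh and Fasn were chosen after their values were seen.

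Of 8 tested genes of pantothenate uptake, coenzyme A carriers and coenzyme A degradation, 0 passed the limma test, 3 had an unadjusted p under 0.05, and the median was 0.16. Nudt7, the peroxisomal hydrolase that cleaves coenzyme A, read 874, 967 and 956 on the KO arrays, against 691, 607 and 685 on the WT arrays. The groups did not overlap, with KO above WT as in 8.56% of all probe sets with 1 symbol. The difference of 0.50 (limma SE 0.11) missed the threshold (adjusted p = 0.0502). Over 16 alternatives the adjusted p ran from 0.0277 to 0.904. The highest came with the probe sets of the gene averaged, where the difference was only 0.08 (limma SE 0.25), so the rise depends on the probe set. Its mitochondrial relative Nudt8 had 0.42 (adjusted p = 0.201) with overlapping groups. Vnn1, the pantetheinase that returns pantothenate from pantetheine, read 1807, 970 and 1810 in KO, against 2355, 2041 and 1845 in WT (-0.49, limma SE 0.21, adjusted p = 0.214).

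None of the 16 acyl-CoA and acetyl-CoA synthetase genes passed the limma test, and the median was -0.10. An unadjusted p under 0.05 was found for 3, or for 2 of 15 without Slc27a2. The succinyl-CoA ligase subunits Suclg1 and Sucla2 had 0.34 (adjusted p = 0.0861) and 0.34 (adjusted p = 0.0886), each with every KO array above every WT array. That held for 8.56% of all 34945 probe sets with 1 symbol, and both genes were named for their small p. Slc27a2, a very long chain acyl-CoA synthetase, averaged 38.7 ± 6.73 in KO, under the limit on each of the 3 arrays, and 70.4 ± 14.6 in WT (SD, n = 3 each). With KO arrays set at their limit it was at least 1.44-fold lower in KO, a bound with no test. The limma fit, on signals not raised to the limit, gave -0.86 (adjusted p = 0.242). Slc27a2 entered the fit only through the WT arrays, where it is high, so its p supports nothing. Of 9 acyl-CoA thioesterase genes 0 passed (2 with an unadjusted p under 0.05, median 0.09), with Acot1 at 0.54 (adjusted p = 0.106), Acot2 at 0.23 (adjusted p = 0.230) and Acot7 at 0.26 (adjusted p = 0.262). Acot1 and Acot2 are close paralogs, and their signals may be shared.

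Of 10 acyl-CoA binding and carnitine acyltransferase genes 0 passed the limma test, 4 had an unadjusted p under 0.05, and the median was 0.05. Dbi, the acyl-CoA-binding protein, averaged 13174 ± 342 in KO and 10908 ± 647 in WT (SD, n = 3 each), a log2 difference of 0.27 (adjusted p = 0.0747). Acbd3, a Golgi protein with an acyl-CoA-binding domain, had -0.30 (adjusted p = 0.0999), and Cpt1a, the carnitine palmitoyltransferase of the outer mitochondrial membrane, had 0.82 (adjusted p = 0.101). Of 15 enzymes that make or use acetyl-CoA or branched-chain acyl-CoA 0 passed, 7 had an unadjusted p under 0.05, and the median was 0.16. Dld, the dihydrolipoamide dehydrogenase shared by the 2-oxoacid dehydrogenase complexes, averaged 2849 ± 467 in KO and 1905 ± 175 in WT (SD, n = 3 each), a log2 difference of 0.57 (adjusted p = 0.0542). Pdhx of the pyruvate dehydrogenase complex had 0.44 (adjusted p = 0.0746) and Bckdhb of the branched-chain complex 0.38 (adjusted p = 0.0760). In all 3 of these genes every KO array lay above every WT array, as in 8.56% of all 34945 probe sets with 1 symbol. They were named for the smallest p of the list, so this separation adds no evidence. Pdha1, the E1 alpha subunit of pyruvate dehydrogenase, named after its values were seen, read 4868, 4790 and 5193 on the KO arrays, against 6045, 6105 and 5900 on the WT arrays. Every KO array lay below every WT array, as in 11.0% of all probe sets with 1 symbol, and the Pdha1 difference of -0.28 did not pass (adjusted p = 0.0781).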

How the data were processed

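The values the authors deposited are linear MAS5 intensity, 1 per probe set. Affymetrix Expression Console is named per the submitters' processing notes, with no version or setting. The mean of each array after trimming 2% at each end was the same, so no further scaling was applied. MAS5 subtracts mismatch signal, which makes dim probe sets noisy. Of 45037 probe sets besides 64 controls, 34945 had 1 symbol, 932 several and 9160 none, and 34741 were matched by gene identifier to RefSeq (GRCm38.p6).

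Signals were taken to log2. The probe set with the highest mean stood for a gene, tested if above the array's 40th percentile on at least 3 arrays. KO minus WT was fitted with limma 3.58.1 in R 4.3.3 (eBayes with an intensity trend, Benjamini-Hochberg). In 5 simulated sets of 12712 genes with the spreads of these arrays, the fit recovered 37.3% of 1.5-fold, 65.4% of 2-fold and 90.9% of 4-fold changes. For the 16 probe sets the SE is that of the difference of 2 means, not moderated. Named genes are the 7 genes, Rnd3, list genes past the threshold or otherwise the 3 with the smallest p, 2 tested neighbours on each side of Pank3, and the 3 most and 3 least alike; Ndufab1, Aasdh, Fasn, Pdha1, the sex-linked genes and single marker genes fall outside this rule and were chosen after their values were seen. Genes and lists were chosen with earlier results of these data known. Same-numbered KO and WT arrays did not deviate together (r = 0.018, 0.057 and 0.015 over genes), so the numbers were not taken as pairs. Of 14, 13, 8, 10, 8 and 8 genes with a probe set on the cardiomyocyte, endoderm, erythroid, macrophage, endothelial and neuronal lists, those past the threshold were Alb (lower, endoderm) and Lyz2 (higher, macrophage). Figures were drawn with matplotlib 3.10.9.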

Additional observations from a re-analysis of the deposited data

How the results depend on the processing

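Arrays number 3 per group, which limits every count. The log2 difference of the bright Pank3 probe set, chosen by this contrast, was negative under all 16 alternatives. It was -0.52 with the gene's probe sets averaged and ran from -0.97 to -0.80 with single arrays left out. Pank1 and Coasy kept a negative and Ppcs and Ppcdc a positive sign under all 16. Pank2 turned to -0.15 when averaged, and Pank4 turned positive in 2. Several of the 16 could not move these differences: no filter, all 6 arrays above the limit, each probe set tested separately, no intensity trend and the replicate block. Raising dim values to the low-signal limit left them unchanged too, since these probe sets were above it on every array. A sign kept under all 16 is therefore no measure of robustness. The number of genes past the threshold, 162, became 312 with arrays centred on their median, 291 with all 6 arrays above the limit, 83 with each probe set tested separately, 6 with log2 Xist as a covariate, and 1 without the filter on dim probe sets and 1 without the intensity trend. It was 0 with probe sets averaged (limma, 1720 genes at an unadjusted p under 0.05) and ran from 0 to 916 with single arrays left out, the lowest without WT array 1 or 2 (1944 and 1755 at an unadjusted p under 0.05) and the highest without KO array 1. It was 65 without KO array 2, 2 without KO array 3 and 4 without WT array 3. Pank3 was the 1 synthesis gene past the threshold; the count was 0 without the filter, with probe sets averaged, without the trend and with Xist as a covariate, and 0 to 1 with single arrays left out, being 0 without KO array 3 or WT array 1, 2 or 3. Of the other genes that handle coenzyme A, 1 passed; it was 2 with quantile normalization, 5 with centring, 4 with all arrays above the limit, and 0 without the filter, with averaging, with every probe set on its own, without the trend and with Xist, where 23, 19, 23, 20 and 20 had an unadjusted p under 0.05. With single arrays left out it ran from 0 to 9, the highest without KO array 1. With the replicate number as a block 189 genes passed, 1 synthesis gene and 2 other genes (Cbr4 and Dld), and Pank3 kept -0.89; by deviations from the group means, KO arrays 1 and 2 correlated best with the WT array of their number (0.018 and 0.057) and KO array 3 with WT array 1 (0.021), all near 0. The cause of these changes was not tested.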
